A study of Sus scrofa with 6 samples.

Results

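The genes described here carry the signal of noradrenaline and adrenaline in ventricular myocardium and switch it off again. They are the beta1-adrenergic receptor gene ADRB1, the alpha1-adrenergic receptor genes ADRA1A and ADRA1B, the receptor kinase genes GRK2 and GRK5, the beta-arrestin genes ARRB1 and ARRB2, and the adenylyl cyclase genes ADCY5 and ADCY6. They were chosen by name, with earlier results of these data known. The expression table lists 13288 genes, and all 9 are among them under these symbols. All 9 also passed the filter on low expression, which kept 11029 genes for testing.

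In the heart, catecholamines released from sympathetic nerves and the adrenal gland bind beta-adrenergic receptors, which act through the stimulatory G protein on adenylyl cyclase, raise cyclic AMP and make the contraction stronger and faster. Alpha1-adrenergic receptors act through another G protein on phospholipase C and protein kinase C, a route known for its part in cardiomyocyte growth. A receptor that stays occupied is phosphorylated by a G protein-coupled receptor kinase (GRK) and then bound by a beta-arrestin, which uncouples it from its G protein and leads it into the cell. Loss of beta1-adrenergic receptors and a rise of receptor kinases are widely described features of failing hearts. The study presents its constricted minipigs as a model of heart failure in which the ejection fraction was preserved. Whether those features apply to such hearts was not tested here.

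RNA was sequenced from the ventricular tissue of male Tibetan minipigs, 3 of a sham group (Sham) and 3 of a descending aortic constriction (DAC) group, each library being 1 minipig. DAC is a surgical model of pressure overload, in which sutures narrowed the descending aorta until the pressure on the heart side reached 120% of that beyond the narrowing, and Sham minipigs had the chest opened without constriction. Each group had 5 operated minipigs, of which the study excluded 1 whose heart rate was not stable at echocardiography. How the 3 sequenced minipigs of each group were chosen is not given in the sources used here. Tissue was taken at week 12 after surgery. The sources used here give no age, and no treatment with an adrenergic receptor drug is named for either group. For anesthesia at surgery the study names ketamine, midazolam, propofol and isoflurane. It also names ketamine for echocardiography and for euthanasia before tissue was taken. The part of these anesthetics in the values was not tested. Values are FPKM, fragments counted relative to transcript length and to the mapped fragments of the library. Where levels are set beside each other between genes, each row is assumed to cover its transcript. Shared reads are likewise assumed to have been assigned alike. The Sham minipigs are numbered 1 to 3 and the DAC minipigs 4 to 6, as in the sample labels.

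ADRB1 fell in the DAC group, and ADRA1A and GRK5 rose, each at an unadjusted P under 0.05 in limma's moderated test. The other 6 genes did not pass that threshold. Read against the whole table, 3 of 9 stand beside 8.51% of all genes tested. In the higher direction 2 of 9 stand beside 3.25%, and in the lower direction 1 of 9 stands beside 5.27%. No gene of the table passed an adjusted P of 0.05 from limma with Benjamini-Hochberg adjustment over the 11029 genes, although 939 had an unadjusted P under 0.05, so every call below rests on the unadjusted P. Where single genes are described, the P printed is the adjusted one, and a gene said to rise or fall passed the unadjusted threshold. A two-sided exact permutation test of 3 minipigs against 3 cannot go below 0.1, the value it gives to any gene whose groups do not overlap. The Sham and DAC values did not overlap in 4 of the 9 genes, ADRB1 and GRK2 with all DAC values lower and ADRA1A and ARRB2 with all DAC values higher, beside 14.9% of all genes tested. The median log2 fold change (DAC against Sham, of FPKM + 1) over the 9 genes was -0.02, and over all genes tested it was also -0.02.

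**Figure D1:**
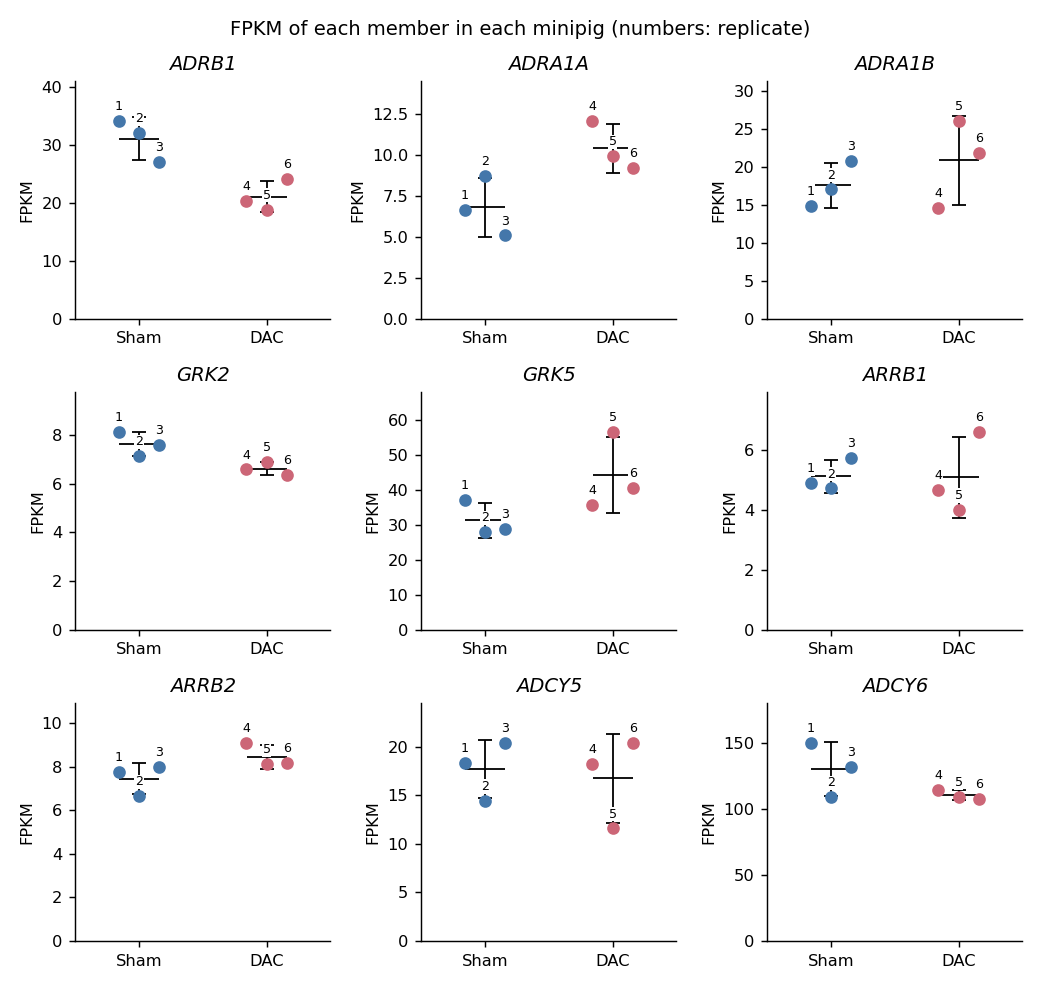
FPKM (y axis, from 0) of each of the 9 genes in the 3 Sham and 3 DAC minipigs. Each point is 1 minipig with its number, the bar is the group mean and the whiskers are 1 SD. The DAC points of ADRB1 and GRK2 all lie under the Sham points, those of ADRA1A and ARRB2 all lie above, and the groups overlap in the other 5 genes.

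ADRB1 (ENSSSCG00000010647) encodes the main cardiac receptor for noradrenaline and lies on the plus strand of pig chromosome 14, 124400189 to 124401739 of the build Sscrofa11.1. Its expression was 34.1, 32.0 and 27.0 FPKM in Sham minipigs 1, 2 and 3, and 20.3, 18.8 and 24.1 FPKM in DAC minipigs 4, 5 and 6. The highest DAC value was thus below the lowest Sham value. The group means were 31.0 ± 3.68 FPKM and 21.1 ± 2.72 FPKM (SD, n = 3 each), a ratio of 0.678. The log2 fold change was -0.54 (standard error 0.14, 95% interval -0.86 to -0.22, adjusted P = 0.482 from limma). By P, ADRB1 ranked 124 among the 11029 genes. The fall held in each of the 14 alternative analyses, with a log2 fold change between -0.64 and -0.47 when 1 minipig was left out. In whole tissue, fewer cells that express a gene and less RNA of that gene per cell cannot be told apart, and this applies to every gene below.

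Some markers of fibroblasts, which make the collagen of the heart, differed between the groups. The summed FPKM of 6 fibroblast markers was 321.3 to 369.9 in Sham and 445.5 to 521.4 in DAC minipigs, and COL1A1, COL1A2 and LUM, 3 of the 6, rose, while DCN, PDGFRA and TCF21 did not pass the test. None of these markers was at 0. Of 6 smooth muscle and pericyte markers CNN1 rose, and their sum was 132.6 to 160.8 FPKM in Sham and 159.5 to 179.7 FPKM in DAC minipigs. Of 5 leukocyte markers CD163 fell, and their sum overlapped at 32.2 to 36.4 and 28.5 to 46.3 FPKM. Nerve and Schwann cell markers summed to 1.92 to 3.52 FPKM and adipocyte markers to 0.111 to 1.34 FPKM over all 6 minipigs, with 2 listed markers each. The summed level of 7 cardiomyocyte markers was 13250 to 14150 FPKM in Sham and 12650 to 15550 FPKM in DAC minipigs, so the groups overlapped. Of these 7, RYR2 fell (ratio 0.748), and MYL2, the ventricular light chain, was between 4149 and 5033 FPKM in all 6 minipigs. The part of these marker differences in the values of ADRB1 or of the other genes was not tested. Mitochondrially encoded genes took 24.01% to 25.3% of all FPKM in Sham and 27.1% to 32.8% in DAC minipigs, and DAC 5 had the largest share. With these genes removed and each library brought back to an equal total, the calls of ADRB1, ADRA1A and GRK5 and their directions were kept.

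ADRA1A (ENSSSCG00000009661; chromosome 14, 10626293 to 10733069, minus strand) encodes an alpha1 receptor that couples to phospholipase C. It measured 6.61, 8.68 and 5.08 FPKM in the Sham group and 12.1, 9.91 and 9.20 FPKM in the DAC group. All DAC values were above all Sham values, although DAC 6 and Sham 2 differed by little. The mean went from 6.79 ± 1.81 to 10.4 ± 1.5 FPKM, a ratio of 1.53 (log2 fold change 0.57, standard error 0.19, interval 0.12 to 1.011, adjusted P = 0.531 from limma). The call was lost without Sham 3 (log2 fold change 0.40), without DAC 4 (0.46) and with a variance estimated for each gene on its own.

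ADRA1B (ENSSSCG00000017041; chromosome 16, 63550128 to 63603034, minus strand), the other alpha1 receptor gene of the set, was the more abundant of the pair. Its values were 14.9, 17.0 and 20.8 FPKM in the Sham group and 14.6, 26.1 and 21.9 FPKM in the DAC group. The lowest value of all was in a DAC minipig, number 4, and the highest in another, number 5. The means were 17.6 ± 3.00 and 20.9 ± 5.82 FPKM, and the interval of the difference included 0 (log2 fold change 0.21, interval -0.31 to 0.73, adjusted P = 0.801 from limma). Single minipigs moved it either way. Without DAC 4 the log2 fold change was 0.43 and passed the unadjusted threshold, while without Sham 1 it was 0.10 and without DAC 5, the highest value, 0.036, and neither passed. The annotated span of ADRA1B overlaps TTC1 on the same strand, and how reads in the shared stretch were assigned is not given in the sources used here.

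ADRA2C, ADRA1D and ADRA2B are receptor genes outside the set. ADRA2C, a receptor gene of the inhibitory alpha2 class, overlapped between the groups at 3.80 to 6.33 FPKM in Sham and 3.60 to 4.65 FPKM in DAC minipigs (log2 fold change -0.26, adjusted P = 0.701 from limma). Without Sham 3 it was -0.44 and passed the unadjusted threshold, and without Sham 2 it was -0.14 and did not. ADRA1D, at 0.089 to 2.004 FPKM, and ADRA2B, at 0.425 to 1.31 FPKM, were too low for the filter, and ADRB3 and ADRA2A were not analysed here.

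As shares of the summed FPKM of the 6 receptor genes described here, ADRB1 made up 54.7%, 47.9% and 46.1% in the Sham minipigs and 39.5%, 31.4% and 38.3% in the DAC minipigs. The share of ADRA1A was 10.6%, 13.0% and 8.68% in Sham and 23.5%, 16.5% and 14.6% in DAC minipigs. Neither share overlapped between the groups. The shares within a minipig depend on each other and come from the FPKM values above, so they are not separate results. The mean share of ADRA1B was 28.3% in Sham and 35.6% in DAC minipigs with overlapping values, and by mean share ADRB1 came before ADRA1B and ADRA1A in both groups. In DAC 5 alone, ADRA1B took a larger share than ADRB1, at 43.6% against 31.4%. The total of the 6 genes was 62.4, 66.7 and 58.5 FPKM in Sham and 51.3, 59.95 and 62.9 FPKM in DAC minipigs, which overlapped (log2 difference -0.11, two-sided exact permutation P = 0.5, adjusted P = 0.5 over 4 class totals). The ratio of ADRA1A to ADRA1B was 0.402 ± 0.138 in Sham and 0.544 ± 0.246 in DAC minipigs (exact permutation P = 0.6, adjusted P = 0.7 over 4 ratios).

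**Figure D2:**
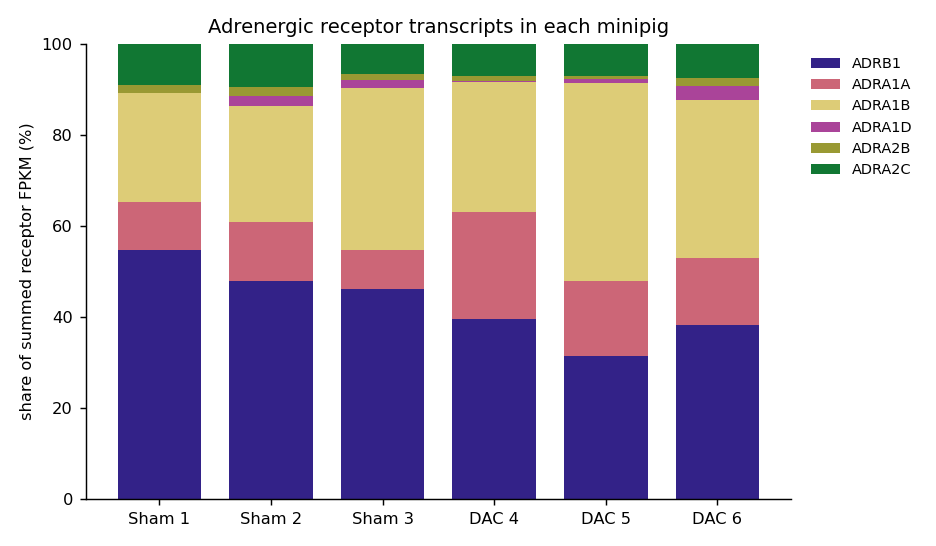
Share (y axis, %) of each of 6 adrenergic receptor genes in their summed FPKM, with 1 bar for each minipig. The ADRB1 block covers 46.1% to 54.7% of the Sham bars and 31.4% to 39.5% of the DAC bars, and the ADRA1A block 8.68% to 13.0% and 14.6% to 23.5%.

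The gene patterns most like that of ADRB1 across the 6 minipigs, by the smallest root mean square difference of log2(FPKM + 1) centered on each gene's mean, were those of SAMD4B (0.062), RNH1 (0.066) and SNAPC2 (0.068). SAMD4B encodes an RNA-binding protein and measured 16.9, 16.1 and 13.6 FPKM in Sham and 11.3, 9.90 and 11.97 FPKM in DAC minipigs. RNH1 encodes the ribonuclease inhibitor and ranged from 9.57 to 13.2 FPKM in Sham and from 7.04 to 9.77 FPKM in DAC minipigs. SNAPC2 encodes a subunit of the small nuclear RNA activating complex and ranged from 2.05 to 2.75 and from 1.34 to 1.92 FPKM. As in ADRB1, Sham 3 was the lowest Sham minipig in all 3 of these genes, and DAC 5 was the lowest and DAC 6 the highest DAC minipig. The 3 genes were picked for closeness to ADRB1 over the same 6 minipigs. The shared order comes from that choice and is not a separate result.

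GRK5 (ENSSSCG00000010683; chromosome 14, 129113602 to 129347153, plus strand) encodes a receptor kinase that sits at the plasma membrane and can also enter the nucleus. It was the most abundant kinase of its family in every minipig. Its expression was 37.1, 28.0 and 28.8 FPKM in the Sham group and 35.7, 56.7 and 40.7 FPKM in the DAC group. DAC 5 stood above all others, while DAC 4 was below Sham 1, so the groups overlapped. The means were 31.3 ± 5.06 and 44.4 ± 11.0 FPKM, a ratio of 1.42 (log2 fold change 0.47, standard error 0.19, interval 0.02 to 0.93, adjusted P = 0.584 from limma). This rise rested on single minipigs. Without DAC 5 the log2 fold change was 0.29 and did not pass, and the call was also lost without Sham 2 (0.40), Sham 3 (0.42) or DAC 6 (0.52) and with each gene's own variance.

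GRK2 (ENSSSCG00000012918; chromosome 2, 5209436 to 5227748, minus strand) encodes the kinase first described as acting on the beta receptor, which is recruited to the membrane by free G protein beta-gamma subunits. It measured 8.14, 7.13 and 7.602 FPKM in Sham and 6.59, 6.90 and 6.37 FPKM in DAC minipigs. All DAC values were lower, but the gap between the groups was small. The means of 7.62 ± 0.502 and 6.62 ± 0.263 FPKM gave a ratio of 0.868, and the test was not passed (log2 fold change -0.18, interval -0.41 to 0.06, adjusted P = 0.645 from limma). With the variance of GRK2 estimated on its own rather than moderated over all genes, the same difference passed the unadjusted threshold.

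Within a minipig, the ratio of GRK5 to GRK2 was 4.52, 3.88 and 3.76 in the Sham group and 5.35, 8.12 and 6.31 in the DAC group. This ratio hardly depends on how the libraries were scaled, and every DAC value was above every Sham value. The means were 4.05 ± 0.410 and 6.59 ± 1.404 (log2 difference 0.69), with a two-sided exact permutation P of 0.1, the smallest that this design allows, and an adjusted P of 0.4 over the 4 ratios. With 1 minipig left out, the log2 difference was between 0.52 and 0.82. GRK5 made up 50.5% to 58.0% of the summed FPKM of the 6 listed receptor kinase genes in Sham and 60.6% to 71.7% in DAC minipigs, and GRK2 made up 12.5% to 15.3% and 8.73% to 11.2%. These shares too come from the same FPKM values and are not separate results. The total of the 6 was 64.9, 55.3 and 49.7 FPKM in Sham and 58.9, 79.0 and 63.7 FPKM in DAC minipigs and overlapped (exact permutation P = 0.3, adjusted P = 0.5).

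None of the other 4 listed kinases passed the test with all 6 minipigs. GRK3, the closest relative of GRK2, was at 7.04 to 13.5 FPKM in Sham and 8.24 to 10.6 FPKM in DAC minipigs (log2 fold change -0.15, adjusted P = 0.869 from limma). GRK4 (means 2.35 and 2.21 FPKM, adjusted P = 0.953 from limma), GRK6 (3.61 and 3.50 FPKM, adjusted P = 0.943) and GRK7 (0.971 and 1.17 FPKM, adjusted P = 0.920) were lower in level and overlapped between the groups. GRK3 passed the unadjusted threshold without Sham 3 (log2 fold change -0.40), and GRK7 without DAC 5 (0.35). GRK7 is known from cone photoreceptors, and GRK1, the rod kinase, was not analysed here.

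ARRB1 (ENSSSCG00000014852; chromosome 9, 9513856 to 9597959, minus strand) and ARRB2 (ENSSSCG00000017918; chromosome 12, 52161776 to 52170344, minus strand) encode the beta-arrestins, which bind phosphorylated receptors. ARRB1 measured 4.90, 4.72 and 5.74 FPKM in Sham and 4.68, 4.002 and 6.61 FPKM in DAC minipigs. The DAC minipigs held both the lowest and the highest value, and the means of 5.12 ± 0.545 and 5.10 ± 1.35 FPKM were nearly equal (log2 fold change -0.02, interval -0.43 to 0.38, adjusted P = 0.977 from limma). ARRB2 measured 7.74, 6.64 and 7.97 FPKM in Sham and 9.08, 8.11 and 8.16 FPKM in DAC minipigs. Its DAC values were all above its Sham values, with 2 of them close to Sham 3, and the test was not passed (means 7.45 ± 0.710 and 8.45 ± 0.546 FPKM, ratio 1.13, log2 fold change 0.16, interval -0.10 to 0.43, adjusted P = 0.699 from limma). The ratio of ARRB1 to ARRB2 was 0.692 ± 0.0476 in Sham and 0.611 ± 0.175 in DAC minipigs (exact permutation P = 0.4, adjusted P = 0.7). Their sum was 11.4 to 13.7 FPKM in Sham and 12.1 to 14.8 FPKM in DAC minipigs (exact permutation P = 0.4, adjusted P = 0.5).

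The alpha-arrestins, a related family that links membrane proteins to ubiquitin ligases, included a larger change than any of the 9 genes. ARRDC2 fell from 18.6, 23.98 and 22.3 FPKM in Sham to 9.51, 11.1 and 9.24 FPKM in DAC minipigs. The groups were far apart, and ARRDC2 ranked 5 by P among all genes tested. The means were 21.6 ± 2.78 and 9.96 ± 1.03 FPKM, a ratio of 0.461 (log2 fold change -1.04, standard error 0.13, interval -1.35 to -0.73, adjusted P = 0.198 from limma), and the call held in each of the 14 alternatives. TXNIP, the gene of the thioredoxin-interacting protein, fell from 418, 392 and 401 FPKM to 320.2, 349 and 308 FPKM (ratio 0.807, log2 fold change -0.31, adjusted P = 0.522 from limma), a call that was lost under quantile normalization and without Sham 1, Sham 3 or DAC 6. ARRDC1 (log2 fold change -0.12), ARRDC3 (0.13) and ARRDC4 (0.06) did not pass the test. ARRDC3 had means of 10.3 FPKM in Sham and 11.2 FPKM in DAC minipigs, and without Sham 3 its log2 fold change was 0.29 and passed the unadjusted threshold.

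ADCY6 (ENSSSCG00000000175; chromosome 5, 14834426 to 14850728, minus strand) and ADCY5 (ENSSSCG00000027952; chromosome 13, 136973000 to 137135349, plus strand) encode the adenylyl cyclases known as the main cardiac forms, both of which calcium inhibits. ADCY6 had the highest level of the 9 genes in every minipig, with 149.9, 109 and 131 FPKM in Sham and 115, 109 and 108 FPKM in DAC minipigs. The DAC values lay close together at the low end of the Sham range, and Sham 2 was within them. The means of 130.1 ± 20.5 and 110.4 ± 3.63 FPKM gave a ratio of 0.848, and the test was not passed (log2 fold change -0.22, interval -0.54 to 0.09, adjusted P = 0.661 from limma). Without Sham 2, the log2 fold change was -0.34 and passed the unadjusted threshold, and without Sham 1 it was -0.12 and did not. ADCY5 measured 18.3, 14.4 and 20.3 FPKM in Sham and 18.2, 11.6 and 20.4 FPKM in DAC minipigs. These values overlapped almost wholly, apart from the low value of DAC 5 (means 17.7 ± 3.02 and 16.7 ± 4.59 FPKM, log2 fold change -0.10, interval -0.62 to 0.42, adjusted P = 0.916 from limma). The ratio of ADCY5 to ADCY6 was 0.137 ± 0.0167 in Sham and 0.152 ± 0.0420 in DAC minipigs (exact permutation P = 0.7, adjusted P = 0.7).

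Of the other cyclases, ADCY9, a widely expressed form, fell. It measured 7.09, 5.09 and 6.50 FPKM in Sham and 3.90, 4.18 and 4.27 FPKM in DAC minipigs, with no overlap and a ratio of 0.661 (log2 fold change -0.49, standard error 0.13, interval -0.80 to -0.18, adjusted P = 0.5 from limma). The call held in each of the 14 alternatives, although the annotated span of ADCY9 overlaps SRL on the same strand. ADCY4 (means 3.96 and 2.88 FPKM, adjusted P = 0.687 from limma) and ADCY7 (2.23 and 2.41 FPKM, adjusted P = 0.902) did not pass the test, although ADCY4 passed the unadjusted threshold without DAC 6 (log2 fold change -0.55). The annotated span of ADCY4 overlaps RIPK3 on the same strand. ADCY3 was below the filter at 0.701 to 1.37 FPKM, and ADCY1, ADCY2, ADCY8 and ADCY10 were not analysed here. ADCY6 made up 80.6% of the summed cyclase FPKM in Sham and 80.5% in DAC minipigs on average. The summed level was 182, 135 and 167 FPKM in Sham and 142, 129.9 and 140.2 FPKM in DAC minipigs, with overlap (log2 difference -0.22, exact permutation P = 0.3, adjusted P = 0.5).

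**Figure D3:**
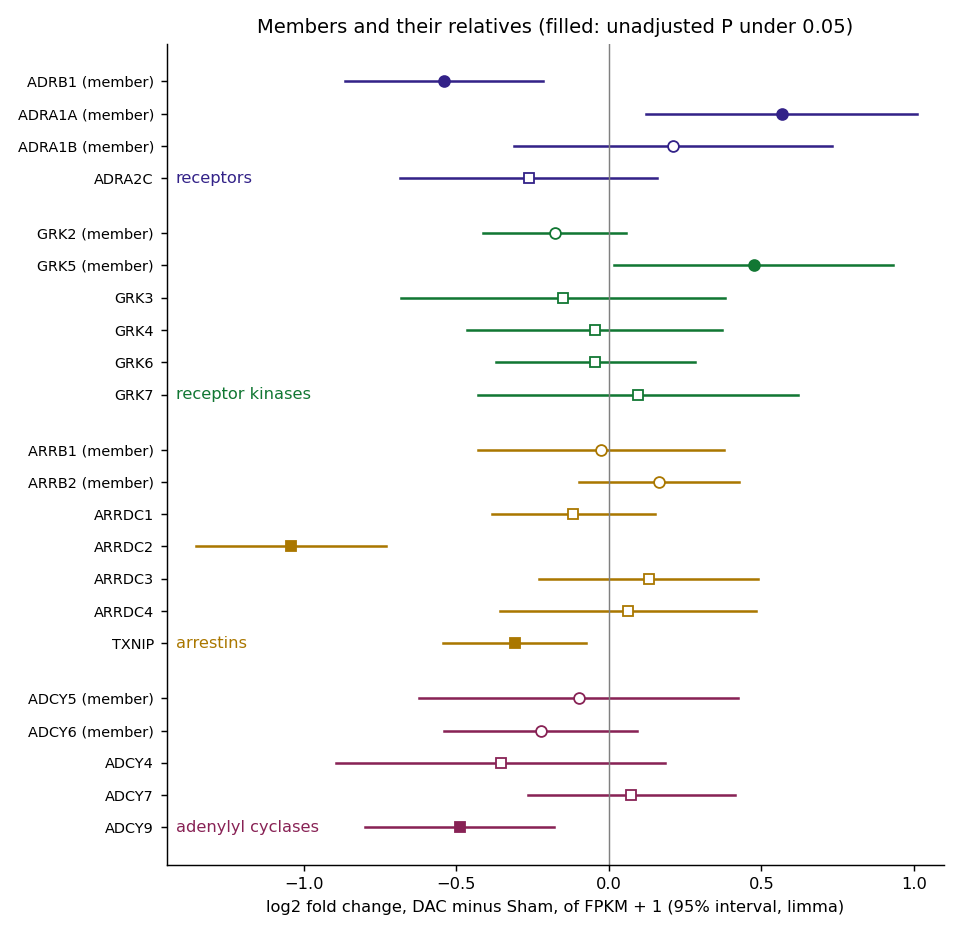
Log2 fold change of FPKM + 1, DAC minus Sham (x axis), with its 95% interval from limma, for the 9 genes (circles, marked as members) and other tested genes of the same 4 families (squares). Filled symbols have an unadjusted P under 0.05. They are ADRB1, ARRDC2, TXNIP and ADCY9 on the lower side and ADRA1A and GRK5 on the higher side.

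Ranked by mean FPKM, the order in the Sham group was ADCY6, GRK5, ADRB1, ADCY5, ADRA1B, GRK2, ARRB2, ADRA1A and ARRB1. The ranges of neighbors overlapped in 5 of the 8 adjacent pairs, namely GRK5 with ADRB1, ADCY5 with ADRA1B, and the 3 pairs among the last 4 genes. In the DAC group the order was ADCY6, GRK5, ADRB1, ADRA1B, ADCY5, ADRA1A, ARRB2, GRK2 and ARRB1. There, GRK5 and ADRB1 no longer overlapped, at 35.7 to 56.7 against 18.8 to 24.1 FPKM, while ADRB1 and ADRA1B did, at 18.8 to 24.1 against 14.6 to 26.1 FPKM. ADRA1A stood in 8th place by mean in Sham and in 6th place in DAC minipigs, and GRK2 stood in 6th and in 8th.

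The stability of the 3 calls differed. ADRB1 passed with each minipig left out in turn, ADRA1A in 4 of the 6 cases and GRK5 in 2 of the 6, so without Sham 3 ADRB1 was the 1 call among the 9 genes. DAC 5 held the highest GRK5 and ADRA1B and the lowest ADRB1, ARRB1 and ADCY5 of all 6 minipigs, and it was also the library with the largest mitochondrial share. Its removal left ADRB1 at a log2 fold change of -0.47, ADRA1A at 0.59 and GRK5 at 0.29. DAC 6 had the most RNA of the 2 listed atrial markers, MYL4 and SLN, at 27.4 FPKM summed. DAC 4 followed with 10.7 FPKM, beside 1.71 FPKM in DAC 5 and 1.49 to 4.80 FPKM in Sham minipigs. Without DAC 6, ADRB1 was at -0.64, ADRA1A at 0.64 and GRK5 at 0.52.

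**Figure D4:**
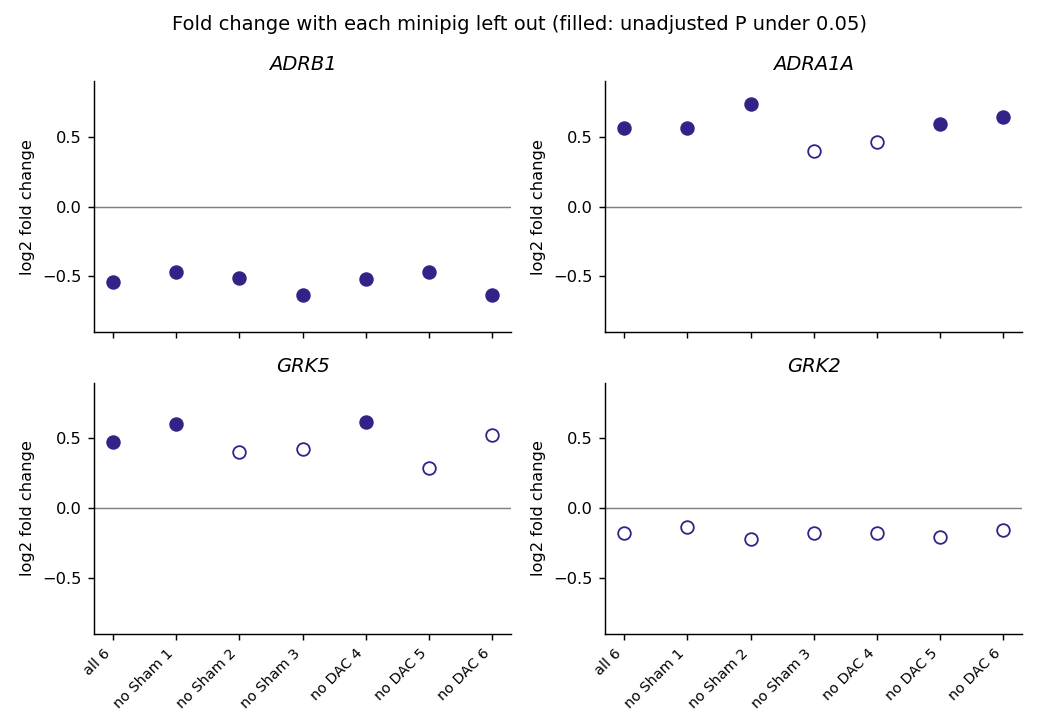
Log2 fold change of FPKM + 1, DAC minus Sham (y axis), of ADRB1, ADRA1A, GRK5 and GRK2 with all 6 minipigs and with each one left out (x axis). Filled points have an unadjusted P under 0.05 in limma. All ADRB1 points are filled and lie between -0.64 and -0.47, those of GRK5 are open in 4 of the 6 cases, and all GRK2 points are open.

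The genes around these receptors were grouped into 10 lists of 144 genes, of which 111 are in the table and 96 were tested. At an unadjusted P under 0.05, 13 of the 96 differed between the groups, which is 13.5% beside 8.51% of all genes tested. Of these, 3 rose (3.13%, beside 3.25%) and 10 fell (10.4%, beside 5.27%). This split depended on the scaling of the libraries. With the mitochondrially encoded genes left out, 8 rose and 7 fell, and with median scaling 7 rose and 8 fell, while over all genes tested the split moved from 358 higher and 581 lower to 502 and 408 or to 438 and 474. Single minipigs also moved it: without Sham 1 the pathway genes held 6 calls, 1 higher and 5 lower, and without DAC 5 they held 7 higher and 9 lower. The median log2 fold change of all genes tested was -0.02. Of the 4 lists of family relatives described above, it was -0.36 over 3 tested cyclases, -0.26 for the 1 tested adrenergic receptor, -0.12 over 5 arrestins and -0.05 over 4 receptor kinases. The medians of the other 6 lists follow.

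Among the G protein subunits, 1 of 17 tested genes rose and 2 fell, with a median of -0.12. GNB3, a beta subunit, measured 31.6, 15.0 and 20.9 FPKM in Sham and 15.1, 7.38 and 8.74 FPKM in DAC minipigs, a ratio of 0.463 with Sham 2 just below DAC 4 (log2 fold change -1.04, standard error 0.32, adjusted P = 0.512 from limma). Its call was lost with each gene's own variance. The gamma subunit genes GNG7, which fell (log2 fold change -0.46, adjusted P = 0.571 from limma), and GNG12, which rose (0.36, adjusted P = 0.585), are typed as long non-coding in the table and took their symbols from the reference, so whether the values are those of the coding transcripts is not given in the sources used here. Their calls were lost in 4 and 5 alternatives. GNAS, the stimulatory alpha subunit, had means of 160.3 FPKM in Sham and 153.8 FPKM in DAC minipigs and did not pass the test. Its annotated span overlaps an unnamed gene on the same strand.

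Downstream of the alpha1 receptors, 1 of 14 tested enzymes rose and 1 fell, with a median of -0.02. PRKD1, protein kinase D, a kinase that phosphorylates class II histone deacetylases, rose from 2.36, 3.38 and 2.67 to 4.34, 3.89 and 4.23 FPKM without overlap (ratio 1.48, log2 fold change 0.45, standard error 0.13, adjusted P = 0.505 from limma). PRKCH, the eta form of protein kinase C, fell from 6.46, 9.52 and 11.97 to 4.68, 4.94 and 5.91 FPKM (ratio 0.556, log2 fold change -0.71, standard error 0.21, adjusted P = 0.505 from limma), and its symbol too came from the reference. Both calls held in each alternative run for them.

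Of the targets of protein kinase A, the kinase that cyclic AMP activates, none of the 12 tested rose and 2 fell, with a median of -0.09. RYR2, the calcium release channel of the sarcoplasmic reticulum, measured 424, 293 and 380.3 FPKM in Sham and 308, 234 and 279 FPKM in DAC minipigs (ratio 0.748, log2 fold change -0.41, adjusted P = 0.585 from limma). KCNQ1, a channel subunit of the slow repolarizing potassium current, measured 37.2, 32.4 and 33.5 FPKM in Sham and 27.5, 30.04 and 26.0 FPKM in DAC minipigs, without overlap (log2 fold change -0.29, adjusted P = 0.555 from limma). Each of these calls was lost in 7 alternatives, among them quantile normalization (log2 fold change -0.29 for RYR2 and -0.24 for KCNQ1). TNNI3, cardiac troponin I (means 723 and 735 FPKM, adjusted P = 0.964 from limma), MYBPC3, myosin-binding protein C (1068 and 1005 FPKM, adjusted P = 0.849), and CACNA1C, the pore of the L-type calcium channel (48.1 and 41.8 FPKM, adjusted P = 0.710), did not pass the test. For cardiac troponin I and myosin-binding protein C the study reports lower protein phosphorylation in the DAC group, which RNA levels do not measure. The symbol of CACNA1C came from the reference, and its row spans 69418543 to 69448455 on chromosome 5, so whether it covers the whole gene is not given in the sources used here. PLN, phospholamban, was not analysed here.

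Among 26 tested genes of receptor scaffolds and trafficking, none rose and 1 fell, with a median of -0.07. This was AP2A1, a subunit of the clathrin adaptor, at 35.1, 25.8 and 37.3 FPKM in Sham and 22.2, 28.9 and 20.9 FPKM in DAC minipigs (log2 fold change -0.43, adjusted P = 0.586 from limma), a call that was lost in 8 alternatives. The annotated span of AP2A1 overlaps MED25 on the same strand and FUZ on the other. None of the 5 tested genes of catecholamine synthesis, uptake and breakdown passed the test, and their median was -0.23. MAOB, which oxidizes amines, had means of 11.7 and 16.7 FPKM with a wide spread (adjusted P = 0.829 from limma).

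Among 9 tested genes of other receptors that couple to the stimulatory or inhibitory G protein, PTGER2 rose and S1PR1 fell, with a median of 0.12. S1PR1, a receptor of sphingosine 1-phosphate that is abundant in endothelium, measured 32.2, 53.4 and 52.9 FPKM in Sham and 24.3, 29.95 and 33.6 FPKM in DAC minipigs, with Sham 1 below DAC 6 (ratio 0.635, log2 fold change -0.61, adjusted P = 0.553 from limma). PTGER2, a prostaglandin E2 receptor, was near the filter at 0.606 to 1.13 FPKM in Sham and 1.35 to 1.67 FPKM in DAC minipigs (log2 fold change 0.37, adjusted P = 0.584 from limma). The first of these calls was lost in 5 alternatives and the second in 6. CHRM2, the muscarinic receptor through which the vagus nerve slows the heart, had all DAC values above all Sham values, at 15.5 to 17.6 FPKM against 12.7 to 15.4 FPKM, and did not pass the test (log2 fold change 0.17, adjusted P = 0.694 from limma). Of 6 endothelial markers KDR and EMCN rose and VWF fell, and their sum was 101.3 to 144.1 FPKM in Sham and 99.4 to 140.8 FPKM in DAC minipigs. The part of these markers in the S1PR1 result was not tested.

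**Figure D5:**
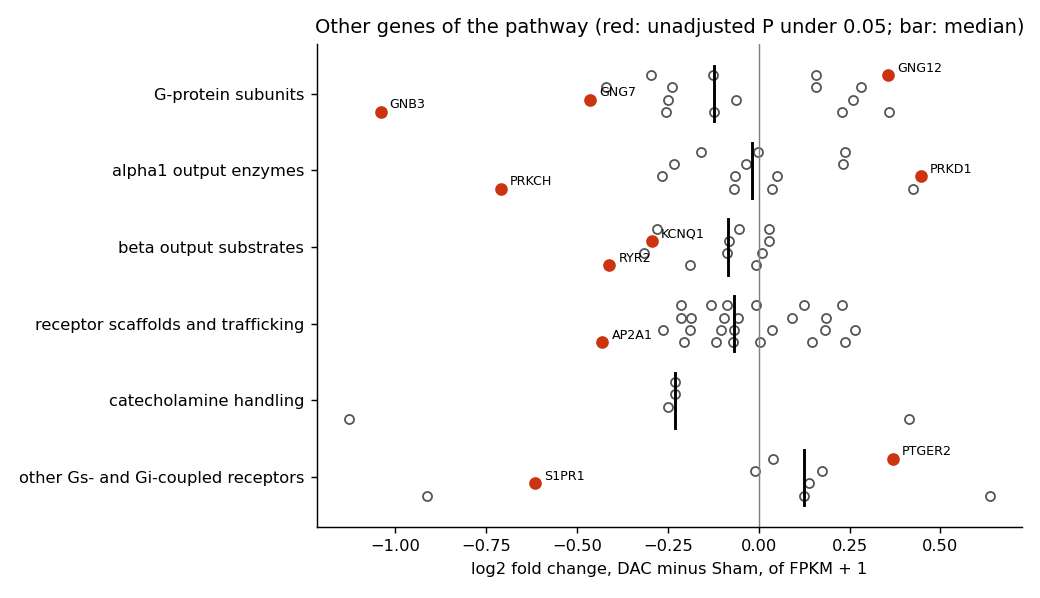
Log2 fold change of FPKM + 1, DAC minus Sham (x axis), of the tested genes in 6 lists around the adrenergic receptors, with 1 point for each gene and a bar at each list's median. Red points are named and have an unadjusted P under 0.05 in limma. The medians of these 6 lists lie between -0.23 for catecholamine handling and 0.12 for other receptors.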

How the data were processed

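The deposited table holds FPKM values of 6 ventricular RNA libraries, 3 Sham and 3 DAC, 1 column for each minipig. A NEBNext Ultra kit was used for the libraries, and an Illumina HiSeq instrument read both ends. The submitters' processing notes name HISAT2 and the genome susScr11 (Sscrofa11.1). The program with which the authors made the FPKM values, and how it treated strand and shared reads, is not given in the sources used here. Each listed gene reaches at least 0.5 FPKM in its highest sample. The depth is unknown, and among low values no steps of whole reads were visible. At most 6 genes shared a ratio between samples, of at least 6520 compared. Precision therefore rests on the spread between minipigs. The P of limma sets a difference against that spread after moderation over all genes tested, not against each gene's own spread alone. Symbols came from the table, and 519 were filled from a table of gene identifiers. Positions of 153 of 154 listed genes in the lists overlapped those of RefSeq on Sscrofa11.1, ARRDC1 being the exception.

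log2(FPKM + 1) was compared between the groups with limma 3.58.1 in R 4.3.3 (linear model, moderated variance with a trend over the mean, two-sided) in all genes that reached 1 FPKM in 3 or more samples. The pseudocount understates changes of low genes. A call is an unadjusted P under 0.05, the study's threshold, and P was adjusted over the 11029 genes by the Benjamini-Hochberg method. Ratios within a minipig (FPKM + 0.1) and class totals were compared by two-sided exact permutation tests in Python 3.11.15 with scipy 1.17.1, and figures used matplotlib 3.10.9. The limma fit was tested on simulated data that held genes with a known change. No batch is named in the sample labels.

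The genes and lists were written by hand and chosen with earlier results of these data known. Named are the 9 genes, those relatives in the 4 families that the lists hold, up to 4 called genes with the smallest P in each other list, the 3 genes with the pattern closest to the gene of smallest P, and, chosen after their values were seen, GNAS, TNNI3, MYBPC3, CACNA1C, MAOB and CHRM2, which did not pass the test. Alternatives concerned the filter (none, or 5 FPKM), the scaling (by the median, by quantiles, or without mitochondrially encoded genes), the pseudocount (0.1), the variance (each gene's own, or sample weights) and the samples (each minipig left out in turn). Some genes of the families and lists, with a planned ratio, are not reported here and were left out, so totals and shares are not of whole families.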

Additional observations from a re-analysis of the deposited data

How the results depend on the processing

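Over 32 named genes that were tested and their alternatives, 436 values were computed, of which 358 kept the direction and the side of the threshold, 55 lost the call, 8 gained it (ADRA1B, GRK2, ADCY6, ADRA2C, GRK3, GRK7, ARRDC3 and ADCY4, each under 1 alternative) and 15 changed sign. Of the 9 genes, 3 were called in all 6 minipigs and 1 to 3 when 1 minipig was left out, with 1 (ADRB1) without Sham replicate 3, and 2 (ADRB1 and GRK2) with each gene's own variance. Of the pathway genes, 13 were called, and 6 to 19 when 1 minipig was left out, with 6 without Sham replicate 1. Of all genes tested, 939 of 11029 were called, 579 of 6271 with a minimum of 5 FPKM, which tests fewer genes, and 600 to 1029 when 1 minipig was left out, with 600 without Sham replicate 1. The log2 difference of the ratio of ADCY5 to ADCY6 was 0.12, and -0.0603 to 0.354 when 1 minipig was left out. ARRB1, at a log2 fold change of -0.02, was at 0.0122 with the mitochondrially encoded genes left out and at 0.0114 with sample weights. When 1 minipig was left out, the log2 fold change ranged from -0.20 to 0.11 for ARRB1, from -0.25 to 0.13 for ADCY5, from -0.405 to 0.018 for GRK3, from -0.18 to 0.11 for GRK4, from -0.148 to 0.0747 for GRK6, from -0.0675 to 0.35 for GRK7, from -0.0905 to 0.179 for ARRDC4 and from -0.0333 to 0.177 for ADCY7. The cause of these changes was not tested beyond the libraries and settings named.

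No paired analysis was possible because the groups hold different minipigs, assigned at random in the study, and the labels name no pairs. ARRB1 was not tested at a minimum of 5 FPKM, where it is left out by the filter. With 3 minipigs in each group, the standard error of the log2 fold change had a median of 0.14 in the genes tested, and in 6 of the 9 genes the 95% interval of the fold change included 0, which does not show that their levels were equal. RNA levels say nothing of receptor density, kinase activity or phosphorylation.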
